A study of Mus musculus with 19 samples.

Results

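Region genes of the mouse hippocampus were examined, that is 10 genes whose mRNA marks the principal neurons of CA1 (Wfs1, Fibcd1, Pou3f1 and Mpped1), of CA3 (Bok, Cpne4 and Spock1) or of the dentate gyrus (Prox1, Dsp and C1ql2). They were found by symbol among the 20436 genes of each count table, and all 10 passed the filter on low counts in both assays. The libraries came from hippocampal slices of wild-type male mice aged 28 to 42 days. DHPG slices received dihydroxyphenylglycine at 100 µM, an agonist of group I metabotropic glutamate receptors, for 5 min, and basal slices received artificial cerebrospinal fluid (ACSF) for the same time. All slices were then placed in cycloheximide at 100 µg/ml, which halts elongating ribosomes. Slices of several mice were pooled for each replicate, and the methods state that CA3 was left in place in replicates 1 to 5. Each lysate was divided between RNA-seq and ribosome profiling, which counts ribosome-protected fragments (RPFs). There were 4 basal RNA, 5 DHPG RNA, 5 basal RPF and 5 DHPG RPF libraries, and DHPG RNA replicate 5 had no basal partner.

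In the hippocampus, dentate granule cells send mossy fibers to CA3 pyramidal cells, and these send Schaffer collaterals to CA1 pyramidal cells, where DHPG is known for inducing long-term depression. The principal cells of each field hold a lasting program of region genes, including transcription factors that specify the cell and surface or secreted proteins of its synapses. In a slice homogenate the level of such a gene moves with the share of its field in the tissue as well as with expression per cell. In bulk samples fewer cells of a type and less RNA per cell cannot be told apart.

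Library totals ran from 4899202 to 6873967 counts in basal RNA and from 4870813 to 7793244 in DHPG RNA. The RPF libraries held from 6500934 to 22092434 counts in basal and from 5692064 to 18194649 in DHPG slices. Levels are given as CPM, counts scaled by edgeR (TMM) to a common library size. Replicate number was a block in the model, so the p-values rest on the spread that remains between libraries of the same replicate number. Precision within a library is limited by counting error, which is widest for Bok in RPFs, the lowest member at percentile 36.6 of all genes tested.

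No region gene passed the test of DHPG against basal. In RNA, 0 of 10 genes passed an adjusted p of 0.01 in edgeR's quasi-likelihood test, against 0.00773% of all 12935 genes tested, and in RPFs 0 of 10 passed an adjusted p of 0.05, against 0.22% of all 13208. An unadjusted p under 0.05 was found for 0 of 10 in either assay, against 8.02% of all genes in RNA and 10.8% in RPFs. DESeq2 with the same replicate block called 0 of 10 in RNA. In RPFs it gave an adjusted p to Wfs1 (0.883) and Spock1 (0.73) only and called neither. The 95% intervals of the fold change together ran from 0.863 for Cpne4 to 1.23 for Pou3f1 in RNA, and from 0.879 for Bok to 1.10 for Fibcd1 in RPFs. Basal and DHPG ranges overlapped for every member in both assays, and did not for 0.51% of all genes tested in RNA and 0.394% in RPFs.

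Among the CA1 genes, Wfs1 encodes wolframin, a membrane protein of the endoplasmic reticulum. Its RNA stood at 149, 233, 216 and 98.4 CPM in basal replicates 1 to 4. After DHPG it was 153, 189, 225, 121 and 121 CPM in replicates 1 to 5. The low libraries were those of replicate 4 and DHPG replicate 5, so the groups overlapped throughout. Wfs1 RPFs were 223, 239, 218, 166 and 208 CPM in basal replicates 1 to 5 and 209, 217, 221, 189 and 201 CPM after DHPG. Replicate 4 was again the lowest in both treatments. The DHPG effect on Wfs1 was 0.023 on the log2 scale in RNA (standard error, SE, 0.079, edgeR adjusted p = 0.964, up in 3 of 4 pairs). In RPFs it was -0.020 (SE 0.035, edgeR adjusted p = 0.88, up in 2 of 5 pairs).

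Fibcd1, a membrane receptor for acetylated sugars such as chitin, showed a different pattern in RNA and RPFs. Its RNA was 96.9, 141, 158 and 85.4 CPM in basal replicates 1 to 4 and 104, 131, 166, 108 and 110.3 CPM in DHPG replicates 1 to 5. Its RPFs were 93.9, 87.8, 90.1, 111 and 93.1 CPM in basal slices and 99.0, 96.4, 96.5, 105 and 99.2 CPM after DHPG. Replicate 4 was thus the lowest replicate in basal RNA and the highest in RPFs. Fibcd1 had the smallest p of the members in RPFs, with a log2 fold change of 0.068 (SE 0.038, edgeR adjusted p = 0.532, up in 4 of 5 pairs).

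Pou3f1, a POU-domain transcription factor, stood at 52.0, 65.5, 73.9 and 48.6 CPM in basal RNA and at 62.7, 57.3, 80.0, 59.7 and 58.9 CPM in DHPG RNA. Its RPFs were 49.8, 38.8, 43.4, 58.8 and 60.2 CPM in basal and 48.3, 44.8, 39.9, 63.5 and 55.4 CPM in DHPG slices. The replicate highest in RNA, replicate 3, was among the lowest in RPFs. The log2 fold change was 0.13 in RNA (SE 0.085, edgeR adjusted p = 0.723) and 0.0041 in RPFs (edgeR adjusted p = 0.985). Mpped1, which carries a metallophosphoesterase domain, ranged from 143 to 193 CPM in basal RNA and from 149.6 to 199.9 CPM in DHPG RNA. Its RPFs ranged from 73.1 to 102 CPM in basal and from 72.3 to 91.3 CPM in DHPG slices, with replicate 4 highest in both. Mpped1 RPFs were lower after DHPG in all pairs but 1 (log2 fold change -0.063, SE 0.039, edgeR adjusted p = 0.584).

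**Figure D1:**
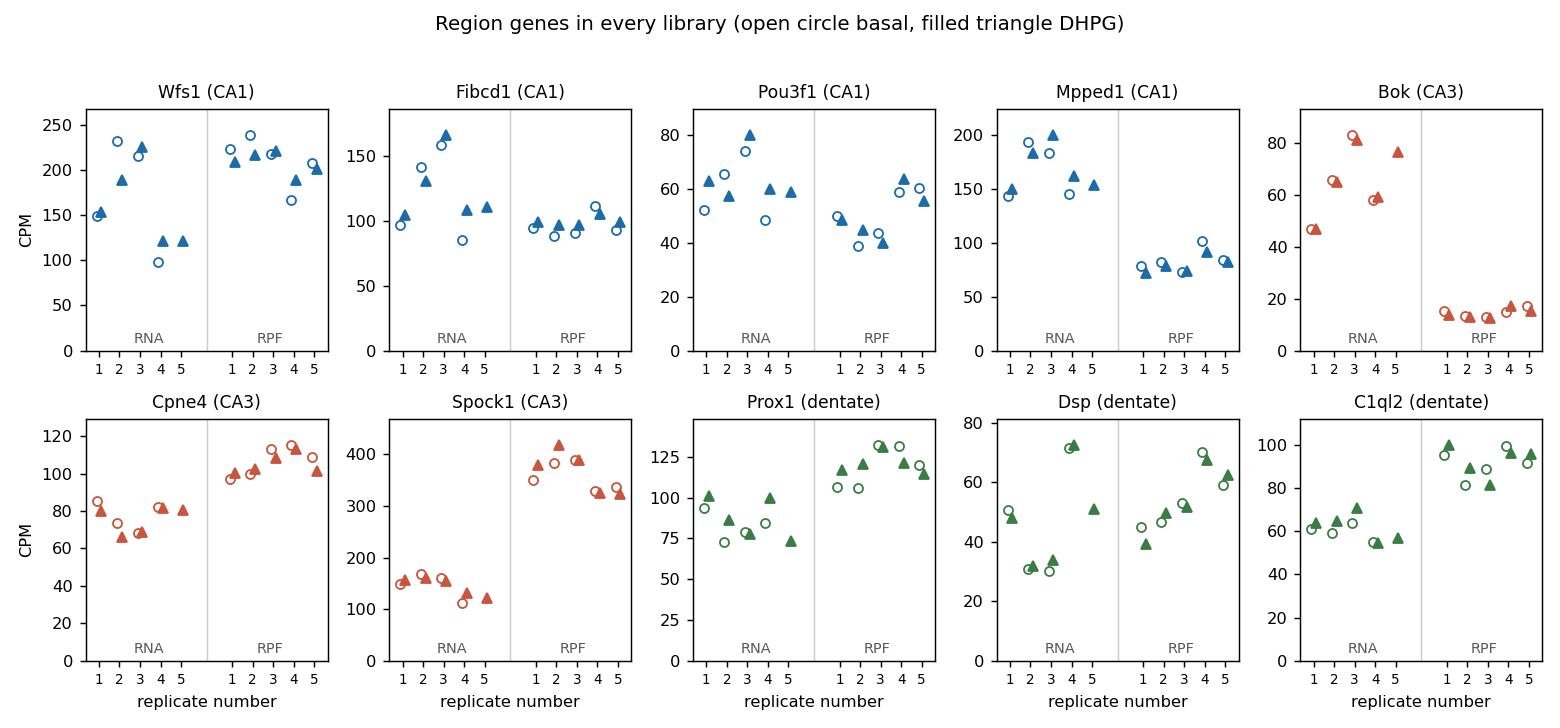
CPM of each region gene (vertical axes, from 0) against replicate number for RNA and RPF libraries, with open circles for basal and filled triangles for DHPG libraries and 1 point per library. For Dsp RNA, basal and DHPG points of a replicate lie close together while replicates differ, from 30.3 to 71.7 CPM in basal slices. This does not hold for every gene. The log2 standard deviation of pair differences and that between replicates were 0.22 and 0.22 for Pou3f1 RNA, and 0.13 and 0.10 for Prox1 RPFs.

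The CA3 genes were present in every library. Bok, a member of the BCL-2 family, was 46.9, 65.7, 83.2 and 58.2 CPM in basal RNA and 47.0, 64.9, 81.0, 59.3 and 76.5 CPM in DHPG RNA. The pairs lay close to each other while the replicates did not, and the standard deviation of the pair differences was 0.028 on the log2 scale against 0.33 between replicates. Bok RPFs ranged from 13.0 to 17.1 CPM in basal and from 12.7 to 17.2 CPM in DHPG slices, below the RNA level in CPM of every replicate. Spock1, which encodes the extracellular proteoglycan testican-1, went the other way, with 149, 168, 159.9 and 112 CPM in basal RNA and 349.9, 384, 389, 329.9 and 336 CPM in basal RPFs. After DHPG, Spock1 was at 157, 161, 154, 131 and 122 CPM in RNA and at 380.2, 419, 389.5, 325 and 323 CPM in RPFs. Replicates 4 and 5 were the low ones in both assays wherever both had a library. Cpne4, a calcium-dependent phospholipid-binding protein of the copine family, varied least among the CA3 genes, from 68.4 to 85.3 CPM in basal RNA and from 66.2 to 81.5 CPM in DHPG RNA. Its RPFs ranged from 96.9 to 115 CPM in basal and from 100.4 to 113 CPM in DHPG slices. The DHPG effects on the CA3 genes lay between -0.058 for Cpne4 and 0.048 for Spock1 in RNA and between -0.034 for Bok and 0.032 for Spock1 in RPFs on the log2 scale.

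Of the dentate genes, Prox1, the homeodomain factor that maintains granule cell identity, had the smallest p in RNA. It was 93.8, 72.7, 78.7 and 84.6 CPM in basal RNA and 101, 86.4, 77.6, 99.6 and 73.7 CPM in DHPG RNA. Prox1 RPFs were 107, 106, 132, 131 and 120.0 CPM in basal slices and 117, 121, 131, 121 and 115 CPM after DHPG. Prox1 RNA was higher in 3 of 4 pairs, with a log2 fold change of 0.14 (SE 0.076, unadjusted p = 0.0696, edgeR adjusted p = 0.649). In RPFs the fold change was 0.022 on the log2 scale (edgeR adjusted p = 0.879, up in 2 of 5 pairs).

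Dsp encodes desmoplakin, the plaque protein that ties desmosomes to intermediate filaments, and is a known granule cell gene. Its RNA was 50.7, 30.9, 30.3 and 71.7 CPM in basal replicates 1 to 4 and 48.1, 31.9, 33.9, 72.6 and 51.1 CPM in DHPG replicates 1 to 5. Its RPFs were 44.9, 46.8, 53.2, 70.2 and 59.2 CPM in basal and 39.4, 49.8, 51.6, 67.5 and 62.4 CPM in DHPG slices. Replicate 4 was the highest in each of these groups. The DHPG effect was 0.030 in RNA and -0.0061 in RPFs on the log2 scale (edgeR adjusted p = 0.96 and 0.975). C1ql2, a secreted C1q-like protein of mossy fiber synapses, ranged from 54.9 to 63.9 CPM in basal RNA and from 54.5 to 71.0 CPM in DHPG RNA. Its RPFs ranged from 81.6 to 99.6 CPM in basal and from 81.4 to 100.1 CPM in DHPG slices, with fold changes of 0.084 and 0.012 on the log2 scale in RNA and RPFs.

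**Figure D2:**
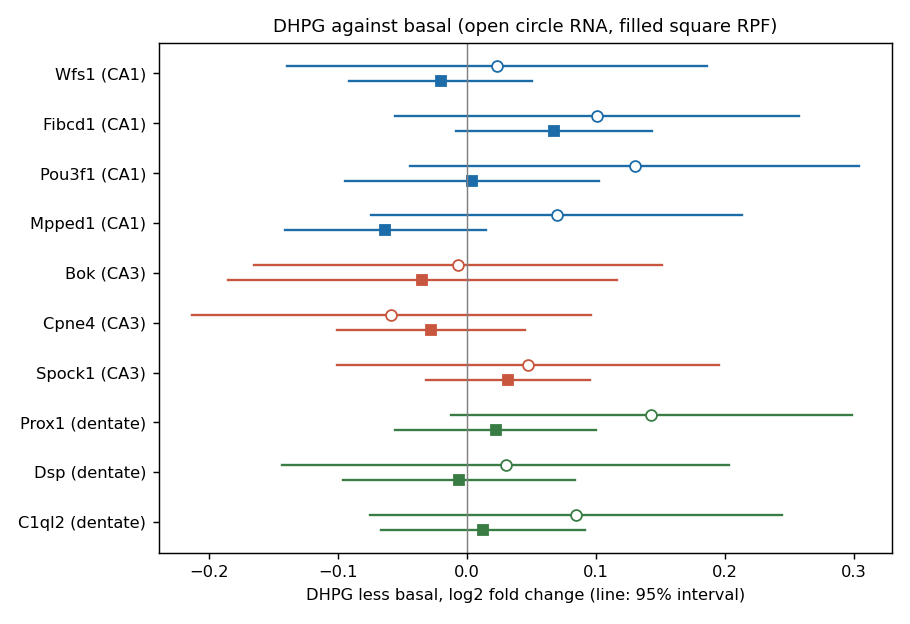
Log2 fold change of DHPG over basal (horizontal axis) for each region gene, with open circles for RNA, filled squares for RPFs and lines for 95% intervals. Every interval includes 0, and those in RPFs are shorter than those in RNA for every gene, least so for Bok.

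Over the 10 genes, 8 had a fold change above 0 in RNA (52.1% of all genes did) and 5 in RPFs (51.4% of all genes did), with medians of 0.059 and -0.00098 on the log2 scale beside medians of 0.0068 and 0.0031 over all genes. Translational efficiency (TE) is the ratio of RPFs to RNA, and the effect of DHPG on it was tested as the difference between the effects on RPFs and on RNA. None of the 10 genes passed an adjusted p of 0.05 in edgeR, as for 0% of all 12691 genes tested in both assays, and 0 had an unadjusted p under 0.05 (6.77% of all genes). Mpped1 came nearest, at -0.14 on the log2 scale (SE 0.071, unadjusted p = 0.0645, edgeR adjusted p = 0.744). Pou3f1 and Prox1 followed at -0.13 and -0.12, and the only value above 0 was that of Cpne4, 0.031.

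Levels of different genes were compared per kilobase, over the transcript for RNA and over the counted coding sequence for RPFs. In basal RNA, Mpped1 stood first at 50.6 ± 7.77 CPM per kb (SD, n = 4), followed by Wfs1 at 45.9 ± 16.4, Bok at 43.3 ± 10.4, Spock1 at 31.9 ± 5.37 and C1ql2 at 29.9 ± 1.88. Fibcd1 at 25.3 ± 7.32, Cpne4 at 19.5 ± 1.96, Pou3f1 at 15.6 ± 3.07, Prox1 at 10.4 ± 1.13 and Dsp at 4.78 ± 2.05 came after. Neighbours in this order overlapped over their basal libraries, except Pou3f1 with Prox1 and Prox1 with Dsp.

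In basal RPFs the order was another one, led by Spock1 at 282.7 ± 21.6 CPM per kb (SD, n = 5) and C1ql2 at 114 ± 8.45. Mpped1 at 91.2 ± 11.7, Wfs1 at 80.9 ± 10.5, Fibcd1 at 72.3 ± 7.04, Cpne4 at 66.3 ± 5.01 and Prox1 at 55.5 ± 5.93 came next. From C1ql2 to Prox1 they formed a run of overlapping neighbours. Pou3f1 at 39.0 ± 7.28, Bok at 25.3 ± 2.92 and Dsp at 6.38 ± 1.19 did not overlap with their neighbours, nor did Spock1 with C1ql2.

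**Figure D3:**
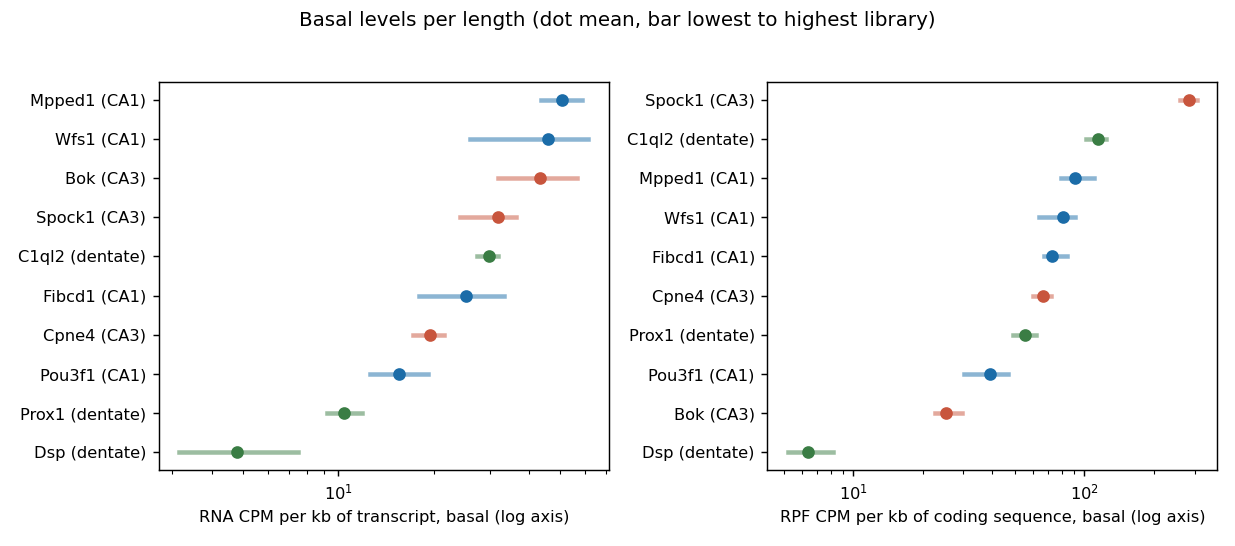
Basal CPM per kb (log axes) of the region genes in RNA and RPFs, ordered by their mean, with dots for means and bars from the lowest to the highest library. Bok stands at 43.3 in RNA and 25.3 in RPFs, and Spock1 at 31.9 and 282.7.

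The log2 RPF CPM less the log2 RNA CPM of the same basal replicate differed widely among the members. Spock1 had 1.31 ± 0.17 (SD, n = 4), at percentile 92.4 of 12691 genes, and Bok had -2.14 ± 0.45, at percentile 3.21. The dentate genes lay above the median of all genes (-0.18), with C1ql2 at 0.61 ± 0.18, Prox1 at 0.53 ± 0.24 and Dsp at 0.29 ± 0.48. The CA3 gene Cpne4, at 0.46 ± 0.22, and the CA1 gene Wfs1 lay within the range of the dentate genes. The CA1 genes were spread over both sides, from Wfs1 at 0.35 ± 0.38 through Fibcd1 at -0.29 ± 0.56 and Pou3f1 at -0.33 ± 0.52 to Mpped1 at -0.99 ± 0.37. These values are not divided by length, and RNA was counted over the whole transcript but RPFs over coding sequence only.

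Most region genes differed between replicates, as did many of all genes tested. In a joint edgeR test of replicate number, 8 of 10 region genes passed an adjusted p of 0.05 in RNA, against 48.1% of all genes tested and 56.9% of genes with at least 10 CPM. In RPFs 10 of 10 passed, against 48.3% and 60.4%. The shares of the members were not set against those of other genes by a test. The methods call the replicate numbers batches and state that slices of several mice were pooled. Whether basal and DHPG slices of one of these numbers came from the same mice is not stated there. Mice, tissue and preparation cannot be told apart.

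Dsp had the widest spread of the members in both assays, with replicate 4 the highest. Its RNA replicates spanned 2.28-fold, with a standard deviation between replicates of 0.57 on the log2 scale, at percentile 97.1 of all genes tested (F = 36.6, edgeR adjusted p = 8.5e-09). In RPFs it spanned 1.64-fold, at percentile 91.1 (edgeR adjusted p = 3.09e-09). Wfs1 spanned 2.02-fold in RNA, at percentile 92.7 (edgeR adjusted p = 6.18e-08), but only 1.29-fold in RPFs, at percentile 53.7 (edgeR adjusted p = 1.18e-05). Without replicate 4, the Wfs1 RPF call was lost (edgeR adjusted p = 0.0727). The F of Dsp was then 13.7 in RNA, below those of Wfs1 (22.1), Bok (18.8) and Fibcd1 (17.8), and 15.4 in RPFs, below that of Pou3f1 (19.2).

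Fibcd1 and Bok were at percentiles 81.8 and 78 of spread in RNA, and at 24.8 and 59.7 in RPFs. The Fibcd1 RPF call rested on replicate 4, since its adjusted p without it was 0.675 in edgeR, and the Bok RPF call was lost without replicate 3 or 5 (edgeR adjusted p = 0.0565 and 0.0677). Pou3f1 showed the opposite order, at percentile 52 in RNA and 88.1 in RPFs (edgeR adjusted p = 0.00506 and 4.73e-09). Its RNA call rested on replicate 3 (adjusted p = 0.66 without it in edgeR). The replicate calls of Mpped1 and Spock1 held in both assays when any replicate was left out. C1ql2, Cpne4 and Prox1 were at or below percentile 31.1 in both assays. C1ql2 RNA (edgeR adjusted p = 0.138) and Cpne4 RNA (adjusted p = 0.0738) did not pass, although Cpne4 RNA did without replicate 5 (adjusted p = 0.0493). The Prox1 calls were lost without replicate 1 in RNA (edgeR adjusted p = 0.112) and without replicate 3 in RPFs (adjusted p = 0.083), and that of Cpne4 RPFs without replicate 4 (adjusted p = 0.0756).

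The methods state that each lysate was divided between the assays. RNA and RPF libraries of the same replicate number were taken to share a lysate, which the labels do not state. Deviations of the replicates from the gene's mean had the same direction in RNA and RPFs in 16 of 40 combinations of gene and replicate, beside 48.7% over all genes, a difference that was not tested. For Wfs1 the deviations in replicates 1 to 4 were -0.14, 0.33, 0.41 and -0.60 in RNA and 0.046, 0.12, 0.071 and -0.24 in RPFs on the log2 scale. For Dsp they were 0.18, -0.47, -0.44 and 0.72 in RNA and -0.31, -0.11, 0.011 and 0.40 in RPFs. In replicate 4, 5 of 10 members had the same direction in both assays. Dsp, Cpne4 (0.12 in RNA and 0.11 in RPFs) and Prox1 (0.089 and 0.068) were above their mean there, and Wfs1 and Spock1 below it.

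Fibcd1, Pou3f1 and Mpped1, all CA1 genes, deviated in opposite directions in replicate 4, by -0.33, -0.20 and -0.14 in RNA and by 0.15, 0.35 and 0.25 in RPFs. Bok deviated oppositely in every replicate, with -0.40, 0.075, 0.40 and -0.078 in RNA and 0.043, -0.11, -0.12 and 0.18 in RPFs. All 4 CA1 genes were below their mean in RNA of replicates 1 and 4. In RPFs of replicates 2, 3 and 4, Fibcd1, Pou3f1 and Mpped1 had one direction and Wfs1 the other.

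A test of whether the replicate pattern differed between RNA and RPFs, chosen after the data were seen, was passed by 9 of 10 region genes, against 49% of all 12691 genes and 59.5% of those with at least 10 CPM in both assays. The smallest adjusted p values were 3.34e-07 for Fibcd1, 8.86e-07 for Dsp and 2.33e-06 for Pou3f1 in edgeR. Spock1 did not pass (edgeR adjusted p = 0.508). Leaving out 1 replicate lost the calls of Cpne4 and Prox1 (replicate 1 or 3) and of C1ql2 (replicate 3 or 4), and 6 genes passed without replicate 3.

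**Figure D4:**
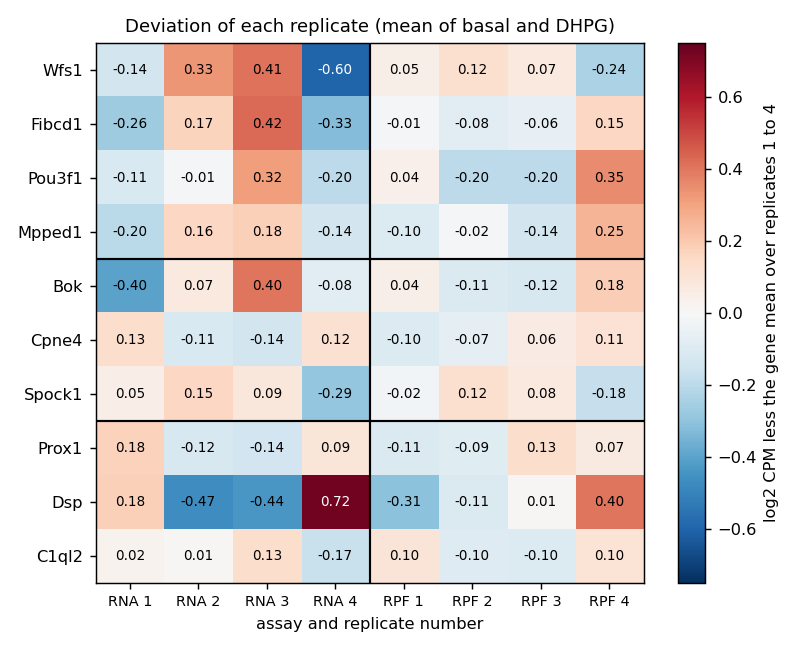
Deviation of each replicate (columns, RNA then RPF) from the gene's mean log2 CPM over replicates 1 to 4, with basal and DHPG averaged, red for above and blue for below the mean. Dsp reads 0.72 in RNA and 0.40 in RPFs of replicate 4, while Fibcd1 reads -0.33 and 0.15.

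The balance of the regions in each library was described by the mean log2 CPM of the dentate genes less that of the CA1 genes. In basal RNA it was -0.62, -1.48, -1.45 and -0.34 in replicates 1 to 4, a range of 1.14 on the log2 scale or 2.20-fold. In DHPG RNA it was -0.70, -1.17, -1.45, -0.53 and -0.80. Replicates 2 and 3 were low and replicate 4 high under either treatment. With basal and DHPG averaged, Dsp RNA deviated from its mean by -0.47, -0.44 and 0.72 in replicates 2, 3 and 4. Prox1 RNA deviated there by -0.12, -0.14 and 0.089 and C1ql2 RNA by 0.010, 0.13 and -0.17, so Dsp moved the dentate mean most. In RPFs the same difference was -0.31, -0.29, -0.055, -0.077 and -0.20 in basal and -0.25, -0.19, -0.12, -0.16 and -0.15 in DHPG slices, a basal range of 0.25 or 1.19-fold. Replicate 3, among the lowest in RNA, was the highest in RPFs.

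After DHPG this balance shifted by less than the spread of the pairs in all comparisons but the dentate less CA3 difference in RNA, where shift and spread were about alike. That difference moved by 0.040, 0.22, 0.12 and -4.4e-05 in its 4 pairs. The spread is the SD of single pairs and does not measure the uncertainty of a mean shift. The dentate less CA1 difference moved by 0.0098 ± 0.22 (SD, n = 4 pairs) in RNA and by 0.011 ± 0.081 (SD, n = 5 pairs) in RPFs. The CA3 less CA1 difference moved by -0.086 ± 0.12 in RNA and by -0.0045 ± 0.053 in RPFs, and the dentate less CA3 difference by 0.096 ± 0.097 and 0.016 ± 0.10. Over the basal libraries, the CA3 less CA1 difference ranged over 0.50 in RNA and 0.22 in RPFs, and the dentate less CA3 difference over 0.64 and 0.34. With the median of the members in place of the mean, these RNA ranges were 1.003 and 0.29, and that of CA3 less CA1 in RPFs was 0.36. The RPF ranges were 0.13 for CA3 less CA1 without replicate 3 and 0.15 for dentate less CA3 without replicate 4. These differences have no test, since the members were chosen.

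**Figure D5:**
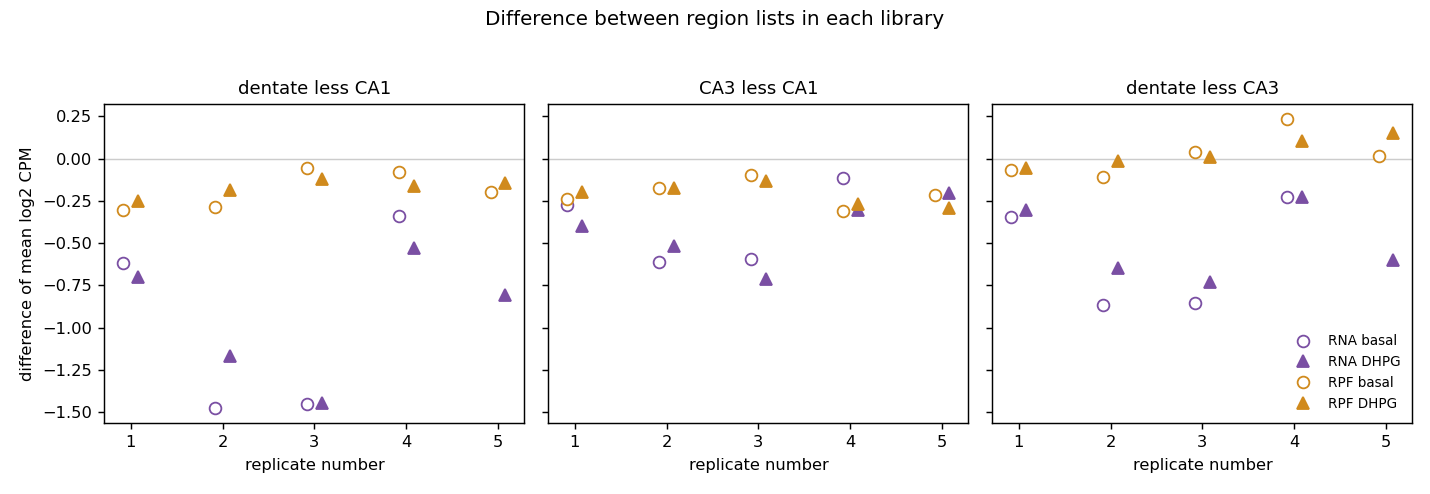
Difference of mean log2 CPM between region lists (vertical axis) in each library against replicate number, with open circles for basal and triangles for DHPG, purple for RNA and orange for RPFs. The dentate less CA1 difference spans -1.48 to -0.34 in basal RNA but -0.31 to -0.055 in basal RPFs.

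Part of the spread in RNA went with the base composition and length of the transcripts. When a loess trend on these features was taken out of each library, the median standard deviation between replicates over all genes fell from 0.22 to 0.17 in RNA. The standard deviation between replicates fell from 0.36 to 0.17 for Fibcd1, from 0.33 to 0.18 for Bok, from 0.22 to 0.092 for Pou3f1, from 0.14 to 0.045 for Cpne4 and from 0.47 to 0.31 for Wfs1 in RNA. It rose from 0.20 to 0.25 for Spock1 and from 0.12 to 0.17 for C1ql2. Dsp kept its spread (0.57 and 0.56 in RNA, 0.28 and 0.28 in RPFs). Among RPFs the spread of Pou3f1 went from 0.26 to 0.15, that of Bok from 0.15 to 0.051 and that of C1ql2 from 0.10 to 0.057, while that of Wfs1 rose from 0.14 to 0.19 and that of Prox1 from 0.10 to 0.12. The basal range of the dentate less CA1 difference then was 0.87 in RNA and 0.33 in RPFs, and that of the CA3 less CA1 difference was 0.16 in RNA. The range of the dentate less CA3 difference was wider, at 0.75 in RNA. The replicate calls of Pou3f1 in RNA (edgeR adjusted p = 0.379) and of Fibcd1, Bok and C1ql2 in RPFs (adjusted p = 0.11, 0.815 and 0.19) were lost, and that of C1ql2 in RNA was gained (adjusted p = 0.0297).

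Markers of excitatory neurons as a whole also moved between the replicates. The 4 excitatory neuron markers (Slc17a7, Neurod2, Neurod6 and Camk2a) summed to 3793, 4855, 5519 and 3258 CPM in basal RNA, in the same order as Fibcd1 and Pou3f1. The CA1 genes Wfs1 and Mpped1 had another order, with replicate 2 the highest. In basal RPFs the excitatory neuron markers summed to 4301, 4475, 4668, 5264 and 4709 CPM, where replicate 4 was the highest. The oligodendrocyte markers Mbp, Mog, Mag and Mobp summed to 1266, 1422, 1533 and 691 CPM in basal RNA and to 2495, 2506, 2446, 1317 and 2260 CPM in basal RPFs, with replicate 4 the lowest in both assays, as Wfs1 was. After DHPG they summed to 1498, 1736, 1601, 761 and 1057 CPM in RNA and to 2576, 2893, 2415, 1499 and 2029 CPM in RPFs. All 4 passed the replicate test in both assays. The part of these markers in the values of the region genes was not tested.

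Of the further genes of the regions given here, 0 were called for DHPG in edgeR, against 0.00773% of all genes in RNA and 0.22% in RPFs. Among 5 other CA1 genes, 3 were higher in RNA and 4 in RPFs, with medians of 0.018 and 0.080 on the log2 scale. Over all genes tested in edgeR, 8.02% in RNA and 10.8% in RPFs had an unadjusted p under 0.05. Among these 5 genes it was found for 0 in RNA and for 4 in RPFs, all 4 higher after DHPG. They were Lefty1 at 0.37 (unadjusted p = 0.00441, adjusted p = 0.226 in edgeR), Sstr4 at 0.11, Man1a at 0.080 and Tyro3 at 0.076, the last 3 named after their values were seen, and Dcn stood at -0.038. Of 7 other CA3 genes 6 were found, with 3 higher in each assay, 0 called and medians of 0.043 and 0.036, and 0 in RNA and 2 in RPFs had an unadjusted p under 0.05. Coch and Iyd were the lowest and highest of these in RNA, at -0.30 and 0.17, and Grik4 and Iyd in RPFs, at -0.041 and 0.17. Of 12 other dentate genes, 10 were higher in RNA and 7 in RPFs, 0 were called, the medians were 0.076 and 0.010, and 0 and 2 had an unadjusted p under 0.05. They ran from -0.18 for Tdo2 to 0.18 for Igfbp5 in RNA and from -0.091 for Dock10 to 0.13 for Akap7 in RPFs. These other dentate genes summed to 804, 743, 714 and 989 CPM in basal RNA, lowest in replicates 2 and 3 and highest in replicate 4 as Dsp was. They summed to 679, 696, 754, 718 and 716 CPM in basal RPFs. The other CA3 genes had the same order in basal RNA, at 430, 391, 377 and 442 CPM, so it was not particular to dentate genes. They summed to 838, 870, 825, 794 and 762 CPM in basal RPFs. The dentate member C1ql2 was lowest in replicate 4 in basal RNA.

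Cells and regions beyond CA1, CA3 and the dentate gyrus were read from marker lists as well. Of 8 CA2 genes and of 3 tested mossy cell genes, 0 were called in either assay. Over all genes tested, 0.00773% in RNA and 0.22% in RPFs were called. An unadjusted edgeR p under 0.05 was found for 2 CA2 genes in RNA, 1 in RPFs, and 1 mossy cell gene in each. Of 10 thalamus markers, among them genes already known to be called in these data, all 7 tested in RNA and all 9 tested in RPFs were higher after DHPG, with 1 (Prkcd) and 6 called. Their summed level was 98.9 to 132.6 CPM in basal RNA and 120.1 to 167 CPM in DHPG RNA, and 154 to 192 and 158 to 256 CPM in RPFs. Among 5 interneuron genes, 0 were higher in RNA and 2 in RPFs, and 1 was called, Sst, whose RPFs rose by 0.20 on the log2 scale (edgeR adjusted p = 0.00066) beside a fold change of -0.12 in its RNA. Of the 4 oligodendrocyte genes, 4 were higher in RNA and 3 in RPFs, with medians of 0.17 and 0.093. An unadjusted p under 0.05 was found for 3 in RNA and 2 in RPFs, against 8.02% and 10.8% of all genes. Mag, a gene of myelin, rose in RPFs by 0.16 on the log2 scale (edgeR adjusted p = 0.0337), and 0 were called in RNA. Of the lists for excitatory neurons, astrocytes, microglia, endothelium, choroid plexus, and subiculum with neocortex, 0 genes were called in either assay. Higher in RNA and RPFs were 4 and 5 astrocyte genes, 3 and 5 microglia genes and 2 and 0 endothelial genes, of 5 each. An unadjusted edgeR p under 0.05 was found for 1 and 2, 0 and 2, and 0 and 1 of these in turn. Excitatory neuron genes were higher in 4 and 3 of 4, and subiculum with neocortex genes in 3 and 2 of 3. The unadjusted p was under 0.05 for 1 and 1, and for 1 and 2, of these. The part of these changes in the values of the region genes was not tested.

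The genes with profiles most like those of each region were sought over the 10 RPF libraries, as the smallest root mean square difference in centred log2 CPM among 9411 genes. For CA1 these were Stard7 at 0.022, Tmem184b at 0.024 and Taco1 at 0.027, against a median of 0.14 over all candidates and 0.077 for a flat profile. For CA3 they were Mkl2 at 0.026, Cdkn1b at 0.029 and Kif3c at 0.032, where a flat profile lay at 0.037. For the dentate genes they were Kdm4b at 0.033, Bcl11b at 0.039 and Dcaf5 at 0.045, with a flat profile at 0.12. In RPFs the members lay 0.067 to 0.21 from the CA1 profile, 0.062 to 0.14 from CA3 and 0.097 to 0.15 from the dentate. Every CA3 member thus lay farther from the CA3 profile than a flat one did. In the 9 RNA libraries the same nearest genes lay at 0.38, 0.13 and 0.28 from CA1, at 0.18, 0.39 and 0.13 from CA3, and at 0.35, 0.13 and 0.17 from the dentate profile. By this RNA distance they stood at percentiles 62.7, 4.85 and 39.5 of all genes for CA1 and 32.3, 83.5 and 14.3 for CA3. For the dentate profile they stood at 70.3, 4.59 and 14.1.

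In the mm10 build, as annotated by GENCODE, Wfs1 lies on chromosome 5 from 36966104 to 36989205 with 8 exons, Fibcd1 on chromosome 2 from 31813290 to 31846005 with 7 exons, and Mpped1 on chromosome 15 from 83779467 to 83858494 with 7 exons. Pou3f1 on chromosome 4 from 124656807 to 124660655 has a single exon and overlaps Gm2164 on the opposite strand. Bok lies on chromosome 1 from 93685660 to 93695764, Cpne4 on chromosome 9 from 104547286 to 105034544, where it overlaps Gm23391 on the same strand, and Spock1 on chromosome 13 from 57421195 to 57908332. Prox1 on chromosome 1 from 190118035 to 190170714 overlaps Prox1os and Gm28172 on the opposite strand, Dsp on chromosome 13 from 38151294 to 38198577 overlaps Gm10129 on the opposite strand, and C1ql2 lies on chromosome 1 from 120340582 to 120343174. These overlaps are of whole gene spans and not of exons, and the use of strand in counting was not given in the sources used here. Whether reads of the overlapping genes entered the RNA counts of Pou3f1, Cpne4, Prox1 or Dsp was not tested. The members differ in base composition, from 45.3% GC in the Prox1 transcript to 63.9% in that of Pou3f1, and in counted coding length, from 579 bases for Bok to 8589 for Dsp.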

How the data were processed

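Hippocampal slices gave 19 libraries of RNA or of RPFs. Adapter trimming, depletion of rRNA and tRNA reads in silico, mapping to mm10 and removal of PCR duplicates by molecular identifiers were done by the authors, who deposited estimated counts (RSEM, whole numbers), for whole transcripts in RNA and for coding sequences without 30 bases at each end in RPFs. Another 12 columns of the tables match no sample here and were not used. Region genes and marker lists were chosen with earlier results of these data known.

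Counts were tested in R 4.3.3 with edgeR 4.0.16 (quasi-likelihood F test, TMM, filterByExpr, Benjamini-Hochberg adjustment over all genes tested), with replicate number as a block, at an adjusted p of 0.01 for RNA and 0.05 for RPFs, replicates and interaction. The block pairs samples: the correlation of same-numbered basal and DHPG libraries in their deviations from the group means, across genes, was 0.31 to 0.74 in RNA and 0.26 to 0.52 in RPFs. DHPG RNA replicate 5 lacks a basal partner and adds nothing to that contrast. The interaction of library type and treatment used all 19 libraries in place of the authors' anota2seq. Log2 CPM used a prior count of 2. Each CPM per kb used one GENCODE transcript per gene. Steps were tested on simulated data. Alternatives used limma 3.58.1, DESeq2 1.42.0 and sva 3.50.0 (ComBat). All region genes are named whatever their values. From other lists, only genes past a threshold or with the highest or lowest fold change are named, and for each region the 3 genes of at least 10 CPM nearest in RPF profile. Some genes of the marker lists, and the results that need them, are not reported here, and counts and sums of the 5 other CA1 and 4 oligodendrocyte genes given were added after the data were seen.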

Additional observations from a re-analysis of the deposited data

Results flagged for a closer look

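Each gene and region difference was screened for a library lying apart in each assay and treatment, and 2 of 52 such groups had one (2.6 are expected by chance at the criterion used). Pou3f1 RNA in DHPG replicate 3 stood at 80.0 CPM, with the other DHPG libraries between 57.3 and 62.7 CPM. Fibcd1 RPFs in basal replicate 4 stood at 111 CPM, with the other basal libraries between 87.8 and 93.9 CPM.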

How the results depend on the processing

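No region gene was called for DHPG against basal in RNA or RPFs under the alternatives run, though DESeq2 with the replicate block gave no adjusted p to 8 of 10 members in RPFs, nor DESeq2 after ComBat to Bok. The interaction, run with DESeq2's size factors, at least 10 counts, no replicate block, limma and each replicate left out, called none either. ComBat followed by DESeq2 for RNA and RPFs called 100 RNAs and 427 RPFs over all genes where the main analysis called 1 and 29, and no filter on low counts called 7 and 96. Without the replicate block 0 genes were called in either assay, and the block changed no other call of a member. Leaving out a replicate gave 0 to 22 RNAs and 3 to 71 RPFs. Fold changes of the members kept their direction in 219 recomputations and turned in 21, all of them values that passed no test.

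Without the replicate block, the direction turned in RNA for Wfs1 (-0.10), Bok (0.048) and Spock1 (-0.021), and in the interaction for Wfs1 (0.075), Fibcd1 (0.019) and Spock1 (0.058). With the GC and length trend removed it turned in RNA for Wfs1 (-0.047) and Dsp (-0.063) and in RPFs for Pou3f1 (-0.042) and C1ql2 (-0.029). With limma on the difference of log2 CPM the interaction of Spock1 was 0.0082. With replicates left out in turn, fold changes in RNA ran from -0.066 to 0.13 for Wfs1, -0.022 to 0.0049 for Bok, -0.013 to 0.083 for Spock1 and -0.0069 to 0.062 for Dsp, and those in RPFs from -0.064 to 0.014 for Wfs1, -0.052 to 0.044 for Pou3f1, -0.092 to 0.0019 for Bok, -0.025 to 0.054 for Prox1, -0.034 to 0.014 for Dsp and -0.021 to 0.057 for C1ql2. Interactions then ran from -0.12 to 0.080 for Fibcd1, -0.069 to 0.016 for Bok, -0.013 to 0.065 for Cpne4, -0.076 to 0.059 for Spock1 and -0.061 to 0.0094 for Dsp. The causes were not tested.

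The basal range of the dentate less CA1 difference moved by less than 1 SD of the basal libraries under all alternatives run. That SD, 0.58 in RNA and 0.12 in RPFs, comes from the same values as the range, so the criterion is loose. With replicates left out the range was 0.86 to 1.14 in RNA and 0.23 to 0.25 in RPFs. That of CA3 less CA1 in RNA was 1.003 with the median of the members and 0.16 with the trend removed, and in RPFs 0.36 with the median and 0.13 to 0.22 with replicates left out (lowest without replicate 3). That of dentate less CA3 was 0.29 in RNA with the median, and 0.15 to 0.34 in RPFs with replicates left out (lowest without replicate 4). Over all alternatives, the edgeR adjusted p of the replicate test ran from 5.91e-05 to 0.66 for Pou3f1, 0.00309 to 0.112 for Prox1, 0.0297 to 0.378 for C1ql2 and 0.0493 to 0.85 for Cpne4 in RNA, and from 1.02e-09 to 0.0727 for Wfs1, 0.00596 to 0.675 for Fibcd1, 0.00823 to 0.815 for Bok, 0.00342 to 0.0756 for Cpne4, 0.000144 to 0.083 for Prox1 and 0.00301 to 0.19 for C1ql2 in RPFs. The count of members that differed between replicates was 7 to 9 for RNA and 7 to 10 for RPFs, and no other gene lost a call. Counting error limits Bok RPFs most, and 4 pairs limit RNA.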
